A study of Homo sapiens with 27 samples.

Results

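DUSP4, DUSP5, DUSP6, SPRY1, SPRY2, SPRY4, SPRED1 and SPRED2 are 8 genes whose products restrain the RAS–ERK branch of mitogen-activated protein kinase (MAPK) signalling. They were chosen by symbol, as the rows of the count table whose gene symbol is 1 of these 8. Each symbol had a single row, so the set is 8 of 40487 rows, and all 8 passed the filter on low counts. Their levels were followed over 9 groups of 3 RNA-seq libraries, 27 in all.

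The cells were MCF10A, an established, non-tumorigenic line of human mammary epithelial cells. They were grown in medium with horse serum, hydrocortisone, cholera toxin, insulin and epidermal growth factor (EGF) at 20 ng/ml, plated on collagen-1, and then held for 18 h in medium free of growth factors. The group T0 was taken at that point, 0 h. The other groups received fresh growth-factor-free medium with phosphate-buffered saline (PBS, the vehicle), EGF, oncostatin M (OSM, an interleukin-6 type cytokine) or transforming growth factor beta (TGFB), or with EGF+OSM, EGF+TGFB, OSM+TGFB or EGF+OSM+TGFB. Each ligand was at 10 ng/ml, and RNA was collected 24 h after the ligands. The series asks whether responses to several such signals add up. All groups, controls included, thus share a history of EGF exposure followed by starvation, and all come from 1 cell line. The labels number the replicates but do not say that they were separate cultures, so p-values measure the spread between these libraries, which may be technical.

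Growth factor receptors such as the EGF receptor activate RAS, then the kinases RAF, MEK and ERK, and ERK in turn raises transcription of genes that damp the same cascade. DUSP4 and DUSP5 are dual-specificity phosphatases of the nucleus and DUSP6 is their cytoplasmic relative; they remove the activating phosphates from ERK, and DUSP4 also acts on other MAPKs. The Sprouty proteins SPRY1, SPRY2 and SPRY4 act further up, between the receptor and RAF. SPRED1 and SPRED2, relatives of the Sproutys, recruit neurofibromin, which switches RAS off. In epithelium this delayed feedback is known to limit how long and how strongly ERK stays active after a growth factor arrives. OSM signals through gp130 and the JAK–STAT pathway and can also engage RAS–ERK, and TGFB signals mainly through SMAD factors.

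The promoters below are shown because these genes responded in different ways: DUSP6 had the widest range of the 8, SPRY1 was low when TGFB was combined with EGF, and SPRY2 was lower with OSM. Each is the 250 bases before the transcription start, 5′ to 3′ on the gene's strand, from RefSeq (GRCh38.p14). Capitals mark matches to the motifs searched. The coordinates are chr12:89352502-89352751 (minus strand) for DUSP6, chr4:123396545-123396794 (plus strand) for SPRY1 and chr13:80341127-80341376 (minus strand) for SPRY2.
DUSP6: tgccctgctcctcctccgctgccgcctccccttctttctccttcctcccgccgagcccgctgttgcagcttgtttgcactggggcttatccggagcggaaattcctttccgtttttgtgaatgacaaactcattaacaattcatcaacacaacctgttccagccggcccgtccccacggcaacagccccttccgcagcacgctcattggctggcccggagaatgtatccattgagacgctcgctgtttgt
SPRY1: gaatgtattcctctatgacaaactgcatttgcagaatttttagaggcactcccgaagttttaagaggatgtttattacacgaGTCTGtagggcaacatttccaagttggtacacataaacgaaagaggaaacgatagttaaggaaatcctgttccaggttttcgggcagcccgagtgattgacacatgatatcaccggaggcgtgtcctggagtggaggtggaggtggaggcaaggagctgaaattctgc
SPRY2: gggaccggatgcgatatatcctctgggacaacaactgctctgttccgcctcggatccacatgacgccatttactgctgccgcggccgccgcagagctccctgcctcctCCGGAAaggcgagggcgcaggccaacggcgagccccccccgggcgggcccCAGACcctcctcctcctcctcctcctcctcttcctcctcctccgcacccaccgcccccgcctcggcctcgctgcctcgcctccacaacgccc
The motifs were AP-1 (TGAGTCA), the cyclic AMP response element (TGACGTCA), ETS (CCGGAA), STAT (TTCNNNGAA) and SMAD (CAGAC), each on both strands. Of the 8 genes, 6 matched the promoter table, and DUSP4 and DUSP5 did not. In SPRY1, the capitals are a SMAD match on the opposite strand, 168 to 164 bases before the start. In SPRY2, the capitals are an ETS match 142 to 137 bases before the start and a SMAD match 92 to 88 bases before it. The ETS letters were in 1 of the 6 promoters and in 14.8% of the 27305 promoters of the same length in the table. SMAD letters were in 4 of the 6 (SPRY1, SPRY2, SPRED1 and SPRED2) and in 37.8% of all. AP-1 (4.16% of all), the cyclic AMP response element (1.77%) and STAT (6.78%) letters were in 0 of the 6. DUSP6, with the largest responses below, held none of the letters searched in this window, which says nothing of sites elsewhere.

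The shallowest library summed to 30.1 M counts (M, mega), the deepest to 52.9 M and the median library to 39.5 M. Levels are in CPM, which is counts per M counts after scaling of the library size. KRT5, a marker of basal mammary epithelium, was high in every library (3315 to 9189 CPM). The luminal keratins KRT8 (129 to 714 CPM) and KRT18 (109 to 430 CPM) were present in every library as well. So was CDH1 (143 to 675 CPM), whereas EPCAM stayed between 2.72 and 18.5 CPM. Of the markers of other cell types, PTPRC, CD3E, CDH5 and COL3A1 did not exceed 0.144 CPM in any library. PECAM1 ran from 0.122 to 2.06 CPM and PDGFRB from 0.0941 to 1.04 CPM, while CD68 reached 50.4 and COL1A1 118 CPM, the latter highest with TGFB. In 2 groups a single library stood to one side: OSM replicate 3 was the highest OSM library for 8 of the 8 genes, and T0 replicate 1 the lowest T0 library for 8 of the 8. Most comparisons that use the OSM or T0 group are given without these libraries as well. The part of these library differences in the results was not tested otherwise.

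**Figure D1:**
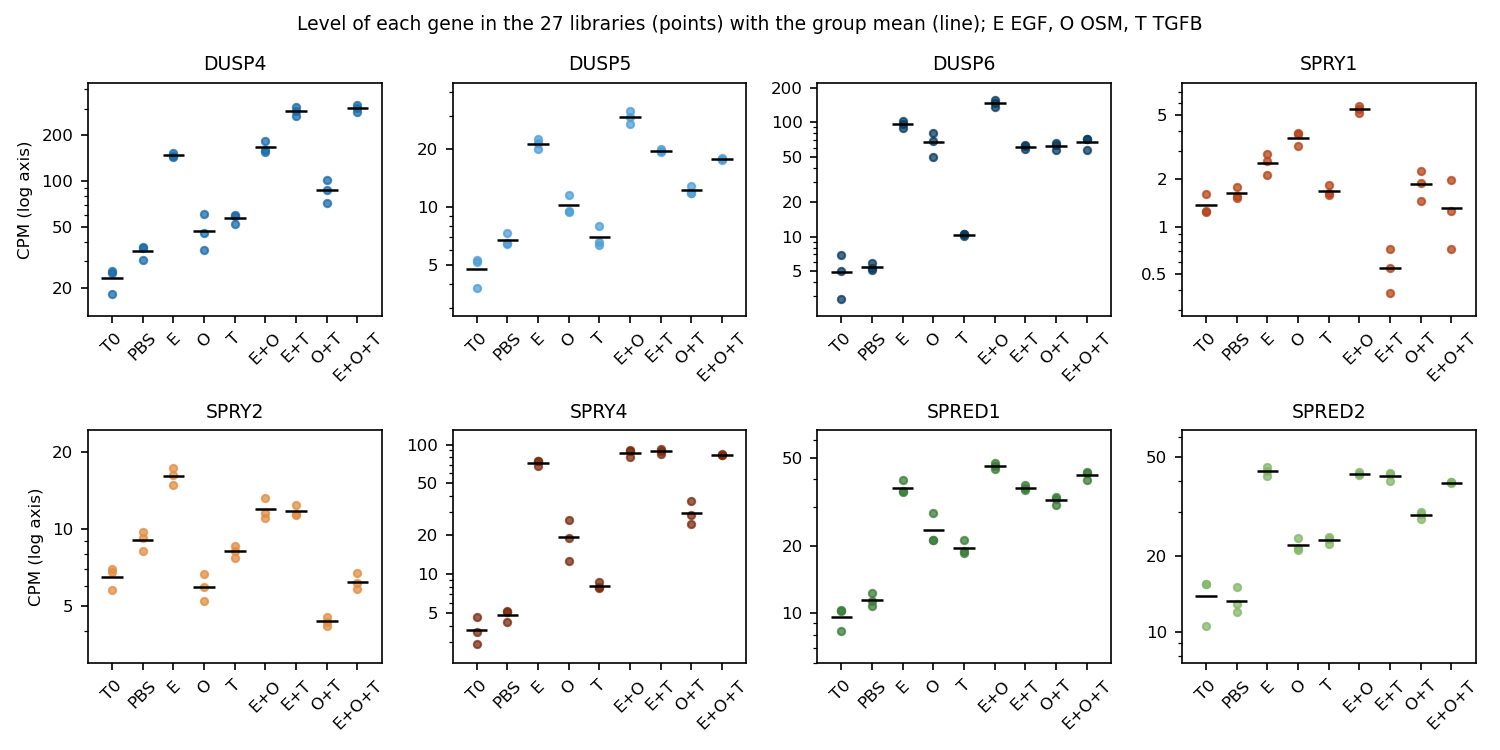
Level in CPM (log axis) of each gene in the 27 libraries. Points are libraries, black lines are means of 3, and the groups on the horizontal axis are T0, PBS and the ligands E (EGF), O (OSM) and T (TGFB) alone and combined. DUSP6 runs from 4.92 CPM in T0 to 148 CPM with EGF+OSM, DUSP4 is highest in the EGF groups that also had TGFB, and SPRY1 and SPRY2 follow patterns of their own.

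At 24 h, EGF had raised every gene of the set over PBS: 8 of 8 rose, by a median log2 value of 1.69. The rises ran from 1.55-fold for SPRY1 to 17.8-fold for DUSP6. EGF changed much of the transcriptome, since 70.8% of the 16611 rows tested were called and 33.8% were called higher, with a median over all rows of -0.07. Calls were made at an adjusted p below 0.05 in edgeR's quasi-likelihood test, and all fold changes are on the log2 scale with their standard error (SE). The RNA came from whole cultures, so fewer cells with a transcript and less of it per cell cannot be told apart. All comparisons with PBS share the same 3 PBS libraries.

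Among the ERK phosphatases, DUSP6 (ENSG00000139318, chromosome 12, 89347235 to 89352501, GRCh38 in GENCODE v44) changed the most. The PBS libraries held 5.82, 5.10 and 5.26 CPM and the EGF libraries 102, 89.2 and 96.6 CPM, so the groups were far apart. The log2 fold change with EGF was 4.16 ± 0.20 (adjusted p = 1.24e-13). With OSM, DUSP6 stood at 68.7, 49.8 and 81.1 CPM, a log2 fold change of 3.62 ± 0.20 (adjusted p = 1.46e-12), and it was 0.53 higher with EGF than with OSM (adjusted p = 0.00902) without overlap of the groups. TGFB alone took it to 10.5, 10.1 and 10.5 CPM, above all PBS libraries (0.95 ± 0.21, adjusted p = 0.00126). An antisense long noncoding RNA (ENSG00000274021) overlaps an exon of DUSP6 on the opposite strand and has no row in the table. Whether the counting used strand is not given in the sources used here, so reads from the overlapping stretch may not have been told apart.

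DUSP4 (ENSG00000120875, chromosome 8, 29333064 to 29350684) rose with EGF and with TGFB. It stood at 36.6, 37.2 and 30.7 CPM in PBS, 154, 147 and 145 CPM with EGF and 59.8, 59.4 and 52.6 CPM with TGFB. The EGF and TGFB libraries all lay above the PBS libraries, with log2 fold changes of 2.09 ± 0.15 (adjusted p = 9.66e-11) and 0.72 ± 0.15 (adjusted p = 8.82e-04). The OSM libraries (45.8, 35.4 and 60.7 CPM) overlapped PBS. The call with OSM (0.44 ± 0.15, adjusted p = 0.0178) was lost without OSM replicate 3 (0.21, adjusted p = 0.223) and without PBS replicate 3 (0.35, adjusted p = 0.0859). It was also lost in a fit of only the groups compared (0.43, adjusted p = 0.114) and with no filter on low counts (0.42, adjusted p = 0.0541).

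DUSP5 (ENSG00000138166, chromosome 10, 110497907 to 110511533), which is selective for ERK, rose with EGF and, by less, with OSM. It held 6.52, 7.36 and 6.43 CPM in PBS and 21.6, 20.1 and 22.6 CPM with EGF, a log2 fold change of 1.66 ± 0.11 (adjusted p = 1.11e-12). The OSM libraries, at 9.50, 9.55 and 11.6 CPM, lay between those groups without overlap (0.59 ± 0.11, adjusted p = 4.10e-05). With TGFB alone the values of 6.37, 7.98 and 6.56 CPM overlapped PBS, and the gene was not called (0.04 ± 0.11, adjusted p = 0.810).

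Among the Sproutys, SPRY4 (ENSG00000187678, chromosome 5, 142310427 to 142326455) had the second largest rise with EGF. Its PBS libraries held 5.19, 5.12 and 4.28 CPM and its EGF libraries 74.7, 67.9 and 75.2 CPM, a 14.9-fold rise (3.90 ± 0.20, adjusted p = 3.03e-13). With OSM it reached 18.9, 12.6 and 26.0 CPM, well apart from both PBS and EGF but uneven among the OSM libraries (1.97 ± 0.20, adjusted p = 2.87e-08). Without OSM replicate 3 the log2 fold change was 1.68, still called. TGFB alone took SPRY4 to 8.74, 7.96 and 7.74 CPM (0.74 ± 0.21, adjusted p = 0.0102).

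SPRY2 (ENSG00000136158, chromosome 13, 80335976 to 80341126) moved in opposite directions with EGF and OSM. PBS libraries held 9.24, 9.71 and 8.19 CPM. EGF raised it to 16.2, 14.8 and 17.3 CPM (0.83 ± 0.10, adjusted p = 4.68e-08), and OSM lowered it to 5.94, 5.25 and 6.64 CPM (-0.61 ± 0.10, adjusted p = 1.23e-05). Neither group overlapped PBS. The EGF and OSM groups differed directly by a log2 value of 1.44 ± 0.10 (adjusted p = 2.06e-11). SPRY2 was the 1 gene of the set that fell with OSM. With TGFB alone it held 8.22, 8.61 and 7.71 CPM, overlapping PBS, and was not called (-0.15, adjusted p = 0.283).

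SPRY1 (ENSG00000164056, chromosome 4, 123396795 to 123403760) had the fewest counts of the set, 19 to 225 per library, so its values carry the most counting error. Its PBS libraries stood at 1.77, 1.55 and 1.52 CPM. With OSM the values were 3.81, 3.19 and 3.86 CPM, all above PBS (1.16 ± 0.24, adjusted p = 1.55e-04). With EGF they were 2.12, 2.58 and 2.84 CPM, also all above PBS (0.64 ± 0.24, adjusted p = 0.0197), but this call was lost without PBS replicate 2 (adjusted p = 0.0544), PBS replicate 3 (0.0585) or EGF replicate 3 (0.0751). SPRY1 was higher with OSM than with EGF in mean, without a call (-0.53 for EGF against OSM, adjusted p = 0.0567); it was called under 3 of the other processing settings tried (adjusted p from 0.0259 to 0.0468). TGFB alone left it at 1.83, 1.58 and 1.61 CPM, overlapping PBS (0.05, adjusted p = 0.897).

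The SPRED genes rose with each single ligand. SPRED1 (ENSG00000166068, chromosome 15, 38252836 to 38357249) held 12.3, 10.8 and 11.4 CPM in PBS, 35.4, 34.9 and 39.5 CPM with EGF, 21.3, 21.3 and 28.3 CPM with OSM and 21.2, 18.7 and 19.0 CPM with TGFB. Every ligand library lay above every PBS library, with log2 fold changes of 1.67 ± 0.09, 1.04 ± 0.09 and 0.77 ± 0.09 (largest adjusted p = 5.49e-07). SPRED2 (ENSG00000198369, chromosome 2, 65310851 to 65432637) went from 15.1, 12.9 and 12.0 CPM in PBS to 41.7, 43.8 and 45.6 CPM with EGF, 21.3, 21.6 and 23.7 CPM with OSM and 23.4, 22.4 and 24.0 CPM with TGFB. Its log2 fold changes were 1.72 ± 0.10, 0.74 ± 0.10 and 0.81 ± 0.10 (largest adjusted p = 5.72e-07). Whether their responses to OSM and TGFB differ was not tested.

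Over the set, 8 of 8 genes were called with OSM (7 higher, SPRY2 lower; median 0.89), where 61.0% of all rows were called and 32.4% higher. Without OSM replicate 3 the OSM values were 0.21 for DUSP4, 0.49 for DUSP5, 3.45 for DUSP6, 1.11 for SPRY1, -0.70 for SPRY2, 1.68 for SPRY4, 0.88 for SPRED1 and 0.69 for SPRED2, and all but DUSP4 kept their call. With TGFB 5 of 8 were called, all higher (DUSP4, DUSP6, SPRY4, SPRED1 and SPRED2; median 0.73), where 33.5% of all rows were called and 18.9% higher. Between EGF and OSM, 54.4% of all rows were called, 50.8% of these higher with EGF. Of the 8 genes, 7 were higher with EGF, by log2 values from 0.53 (DUSP6) to 1.93 (SPRY4). SPRY1 was the exception. Without OSM replicate 3 these 7 genes kept their call, with values from 0.77 (DUSP6) to 2.28 (SPRY4), and SPRY1 stood at -0.41 (adjusted p = 0.192).

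**Figure D2:**
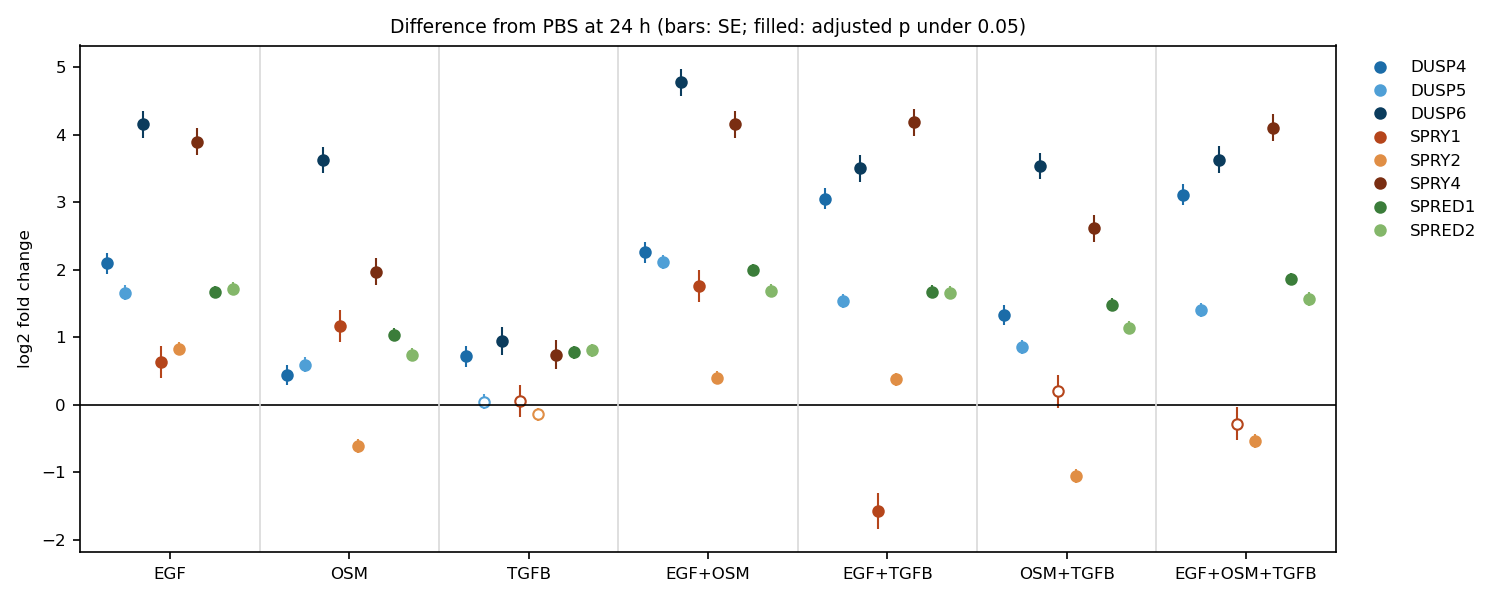
Log2 fold change against PBS (vertical axis) for the 7 ligand groups, with each gene in its own colour. Bars are SE from the fit over 27 libraries, and filled points are called at an adjusted p under 0.05. DUSP6 and SPRY4 lie above 3 in every group that had EGF, SPRY2 is below 0 in 3 of the 4 groups that had OSM, and SPRY1 is called below 0 with EGF+TGFB.

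Compared per kilobase of the canonical transcript, the order of the genes changed with EGF. In PBS, DUSP4 had the highest level (6.27 CPM per kb), followed by SPRY2 (3.96), SPRED2 (2.94), DUSP5 (2.73), SPRED1 (1.58), DUSP6 (1.49), SPRY4 (0.99) and SPRY1 (0.62). With EGF, DUSP4 (26.8 CPM per kb) and DUSP6 (26.5) were at similar levels, followed by SPRY4 (14.8), SPRED2 (9.67), DUSP5 (8.65), SPRY2 (7.05), SPRED1 (5.04) and SPRY1 (0.96). These levels assume that the canonical transcript is the one counted.

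Between the 2 control groups, T0 and PBS 24 h later, 4 of 8 genes were called, all higher in PBS, against 32.9% of all rows. Of all rows called, 46.0% were higher in PBS. DUSP4 rose from 18.4, 25.8 and 25.1 CPM to 36.6, 37.2 and 30.7 CPM (0.59, adjusted p = 0.00576). DUSP5 rose from 3.81, 5.33 and 5.20 CPM (0.50, adjusted p = 0.00106) and SPRY2 from 5.79, 6.97 and 6.76 CPM (0.47, adjusted p = 6.20e-04). SPRED1 was called at 0.25 (adjusted p = 0.0475), a call lost on leaving out any 1 of 19 of the 27 libraries (adjusted p from 0.0508 to 0.246). These were T0 replicate 1, PBS replicates 1 and 3, EGF replicates 1 and 2, TGFB replicates 2 and 3, and every library of the 4 combinations. DUSP6, at 2.83, 5.03 and 6.90 CPM in T0, overlapped PBS (0.14, adjusted p = 0.687), as did SPRY4 at 2.88, 3.56 and 4.69 CPM (0.40, adjusted p = 0.198). Without T0 replicate 1, the library at the low end, the values were 0.45 for DUSP4, 0.36 for DUSP5 and 0.40 for SPRY2, all still called, 0.16 for SPRED1 (adjusted p = 0.246) and -0.22 for SPRED2 (adjusted p = 0.0237, a call not made with that library in). DUSP6 then stood at -0.14 (adjusted p = 0.641), SPRY1 at 0.17 (adjusted p = 0.700) and SPRY4 at 0.25 (adjusted p = 0.499), none of them called with or without that library.

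EGF added to OSM raised 8 of 8 genes, in a comparison where 59.4% of all rows were called, 48.3% of these higher. DUSP4 went from 47.3 CPM with OSM to 185, 161 and 156 CPM with EGF+OSM (1.82 ± 0.15, adjusted p = 2.52e-09). The other called rises ran from 0.59 for SPRY1 to 2.18 for SPRY4. The call of SPRY1 (adjusted p = 0.0287) was lost without EGF+OSM replicate 1 (adjusted p = 0.0558), EGF+OSM replicate 3 (0.0729) or OSM replicate 2 (0.0919). Without OSM replicate 3 all 8 genes kept their call, with values from 0.68 (SPRY1) to 2.50 (SPRY4).

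OSM added to EGF changed 5 of 8, against 33.0% of all rows. DUSP6 rose from 102, 89.2 and 96.6 CPM with EGF to 158, 137 and 148 CPM with EGF+OSM (0.62 ± 0.16, adjusted p = 0.00533), its highest level in the series. SPRY1 also reached its highest level, 5.45, 5.19 and 5.69 CPM (1.12 ± 0.23, adjusted p = 5.09e-04). DUSP5 (0.45) and SPRED1 (0.33) rose by less, to 29.4, 27.1 and 31.6 CPM and 47.4, 44.4 and 45.8 CPM. SPRY2 fell to 11.0, 13.2 and 11.5 CPM (-0.43 ± 0.10, adjusted p = 0.00107). Against PBS, EGF+OSM called 8 of 8, all higher (median 2.06), where 75.0% of all rows were called and 36.6% higher.

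The effect of TGFB changed with EGF beside it for DUSP6, SPRY1, SPRED1 and SPRED2. In the fit over all libraries no such change was called for DUSP4, DUSP5, SPRY2 or SPRY4. The difference was -0.16 for DUSP5 (adjusted p = 0.468) and -0.46 for SPRY4 (adjusted p = 0.229). DUSP4 rose with TGFB in every setting: by 0.72 ± 0.15 alone, 0.96 ± 0.15 on top of EGF, 0.89 ± 0.15 on top of OSM and 0.85 ± 0.15 on top of EGF+OSM (largest adjusted p = 8.82e-04). Its EGF+TGFB libraries reached 307, 291 and 269 CPM and those with all 3 ligands 315, 302 and 286 CPM, far above the 149 ± 4.59 CPM (SD, n = 3) of EGF alone. For no pair that included TGFB did DUSP4 depart from the sum of its log2 responses by a called amount (0.24 with EGF, adjusted p = 0.440; 0.17 with OSM, adjusted p = 0.642).

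DUSP6 changed direction. TGFB raised it over PBS, yet lowered it on top of EGF, from 102, 89.2 and 96.6 CPM to 62.6, 58.5 and 62.2 CPM (-0.65 ± 0.16, adjusted p = 0.00208). On top of EGF+OSM the fall was from 158, 137 and 148 to 71.1, 71.2 and 57.6 CPM (-1.15 ± 0.17, adjusted p = 3.74e-06). On top of OSM the groups overlapped, with 66.5, 57.1 and 63.9 CPM for OSM+TGFB (-0.09, adjusted p = 0.703). The effect of TGFB with EGF differed from its effect alone by -1.60 ± 0.27 (adjusted p = 1.47e-04), which is the same contrast as the departure of EGF+TGFB from additivity.

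SPRY1 showed the largest effect of TGFB in the set. It fell from 2.12, 2.58 and 2.84 CPM with EGF to 0.550, 0.385 and 0.720 CPM with EGF+TGFB (-2.21 ± 0.27, adjusted p = 2.11e-07). These last libraries held 20, 19 and 21 counts, and the highest of them lay just below the lowest library with all 3 ligands (0.721 CPM) and well below all other groups; against PBS the log2 fold change was -1.58 ± 0.27 (adjusted p = 1.31e-05). On top of OSM it fell to 1.88, 1.44 and 2.23 CPM (-0.97 ± 0.24, adjusted p = 0.00147). On top of EGF+OSM it fell from 5.45, 5.19 and 5.69 to 1.96, 1.25 and 0.721 CPM (-2.03 ± 0.24, adjusted p = 1.18e-07), and the 3 libraries with all ligands were uneven. Their comparison with PBS was not called (-0.28, adjusted p = 0.317), but was called lower without EGF+OSM+TGFB replicate 1 (-0.74, adjusted p = 0.0113). The effect of TGFB with EGF differed from that of TGFB alone by -2.27 ± 0.36 (adjusted p = 5.44e-05).

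SPRY2 fell with TGFB on top of each of the other treatments: the change was -0.46 ± 0.10 for EGF, -0.45 ± 0.11 for OSM and -0.93 ± 0.10 for EGF+OSM (largest adjusted p = 0.00106). Its lowest group was OSM+TGFB at 4.32, 4.20 and 4.56 CPM, below all other libraries. The differences between these effects and the uncalled effect of TGFB alone were themselves not called for EGF (-0.31, adjusted p = 0.0981) or OSM (-0.30, adjusted p = 0.153). The difference for EGF was called in a fit of only the groups compared (-0.36, adjusted p = 0.0362) and without OSM replicate 2, OSM replicate 3 or EGF+TGFB replicate 3 (from -0.36 to -0.40, adjusted p from 0.0399 to 0.0469).

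DUSP5 fell with TGFB on top of EGF+OSM, from 29.4, 27.1 and 31.6 to 17.7, 17.9 and 18.1 CPM (-0.72 ± 0.10, adjusted p = 1.26e-06), and was not called on top of EGF (-0.12, adjusted p = 0.338). Whether these effects differ from each other was not tested. On top of OSM it was called slightly higher (0.26, adjusted p = 0.0441), a call lost on leaving out any 1 of 13 of the 27 libraries (adjusted p from 0.0504 to 0.236). These were EGF replicate 1, EGF+OSM replicate 1, OSM replicates 1 and 2, and every library of the 3 combinations with TGFB. SPRY4, SPRED1 and SPRED2 rose with TGFB on top of OSM, by 0.64, 0.45 and 0.40, and none of the 3 was called on top of EGF or EGF+OSM (values from -0.14 to 0.28). That held in the fit over all 27 libraries. With only the groups compared in the fit, SPRY4 was called higher on top of EGF (0.29, adjusted p = 0.00204), and SPRED1 (-0.15, adjusted p = 0.0313) and SPRED2 (-0.14, adjusted p = 0.0273) were called lower on top of EGF+OSM. SPRED1 was called there without OSM replicate 3 too (-0.19, adjusted p = 0.0211). The SPRY4 rise on top of OSM (adjusted p = 0.00476) was lost without OSM+TGFB replicate 3 (0.44, adjusted p = 0.0650) and with only the groups compared (0.63, adjusted p = 0.120), and was 0.37 without OSM replicate 2, still called (adjusted p = 0.0494). For the SPREDs the effect of TGFB with EGF differed from that of TGFB alone by -0.77 ± 0.13 (SPRED1, adjusted p = 9.83e-05) and -0.86 ± 0.13 (SPRED2, adjusted p = 4.58e-05).

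**Figure D3:**
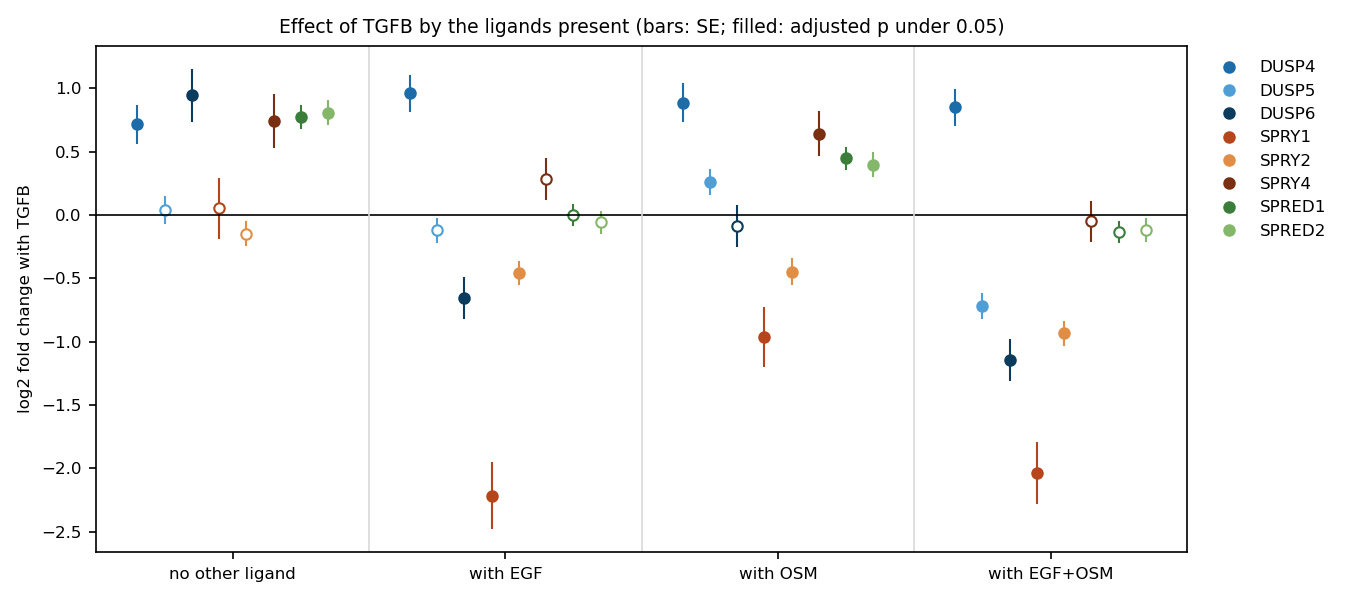
Log2 fold change on adding TGFB (vertical axis) to no other ligand, to EGF, to OSM and to EGF+OSM. Bars are SE, and filled points are called at an adjusted p under 0.05. DUSP4 lies between 0.72 and 0.96 in all 4 settings, whereas SPRY1 runs from 0.05 alone to -2.21 with EGF.

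In counts, TGFB added to EGF called 4 of 8 genes (1 higher, 3 lower) against 52.2% of all rows. Added to OSM it called 7 of 8 (5 higher, 2 lower) against 48.8%. Without OSM replicate 3 these 7 kept their call, from -0.93 (SPRY1) to 1.09 (DUSP4), and DUSP6 stood at 0.06 (adjusted p = 0.810). Added to EGF+OSM it called 5 of 8 (1 higher, 4 lower) against 58.8%. Against PBS, EGF+TGFB called 8 of 8 (7 higher, SPRY1 lower; median 1.67) where 71.3% of all rows were called and 35.0% higher. OSM+TGFB called 7 of 8 (6 higher, SPRY2 lower; median 1.23) where 63.5% were called and 33.1% higher. The 3 ligands together called 7 of 8 (6 higher, SPRY2 lower; median 1.71) where 72.1% were called and 36.6% higher. The members' shares called in these comparisons lay both below and above those of all rows.

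A departure from additivity was the log2 response to a combination less the summed log2 responses to the ligands in it. Every called departure in the set was negative, so the combination was below the product of the single folds. Called departures over all rows leaned the same way. Of these, 40.0% were above 0 with EGF+OSM, 44.5% with EGF+TGFB, 41.3% with OSM+TGFB and 45.6% with all 3 ligands. With EGF+OSM, 4 of 8 genes were called (36.5% of all rows): DUSP6 (-3.00 ± 0.25, adjusted p = 7.52e-09), SPRY4 (-1.72 ± 0.26), SPRED2 (-0.77 ± 0.13) and SPRED1 (-0.71 ± 0.13). With EGF+TGFB, 4 of 8 were called (27.7% of all rows): SPRY1 (-2.27 ± 0.36), DUSP6 (-1.60 ± 0.27), SPRED2 (-0.86 ± 0.13) and SPRED1 (-0.77 ± 0.13). With OSM+TGFB, 3 of 8 were called (21.5% of all rows): DUSP6 (-1.04 ± 0.27, adjusted p = 0.00795), SPRY1 (-1.02 ± 0.34, adjusted p = 0.0331) and SPRED2 (-0.41 ± 0.14, adjusted p = 0.0357). Of these, SPRY1 was lost without any 1 of 7 libraries (OSM replicates 1 and 3, TGFB replicate 1, OSM+TGFB replicates 1 and 2, PBS replicates 2 and 3; adjusted p from 0.0508 to 0.0852). SPRED2 was lost without any 1 of 6 (OSM replicate 3, TGFB replicates 1 and 3, OSM+TGFB replicate 1, PBS replicates 2 and 3; adjusted p from 0.0662 to 0.112). With all 3 ligands, 7 of 8 were called (45.9% of all rows), from -0.61 for SPRY2 to -5.10 for DUSP6. SPRY2 was lost there without PBS replicate 3 (-0.48, adjusted p = 0.0866). Without OSM replicate 3 the EGF+OSM departures were -2.86 for DUSP6, -1.46 for SPRY4, -0.75 for SPRED2 and -0.59 for SPRED1, all still called, and the OSM+TGFB departure of DUSP6 was -0.88, also called. DUSP4 was the 1 gene with no called departure in any combination. Its values moved with single libraries, most of all with OSM replicates 2 and 3 for the pairs that had OSM. With EGF+OSM they ran from -0.48 (without OSM replicate 2, adjusted p = 0.0530) to -0.07 (without OSM replicate 3), with OSM+TGFB from -0.03 to 0.38 on leaving out the same libraries, with EGF+TGFB from 0.15 to 0.33, and with all 3 ligands from -0.40 (without OSM replicate 2) to 0.03.

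**Figure D4:**
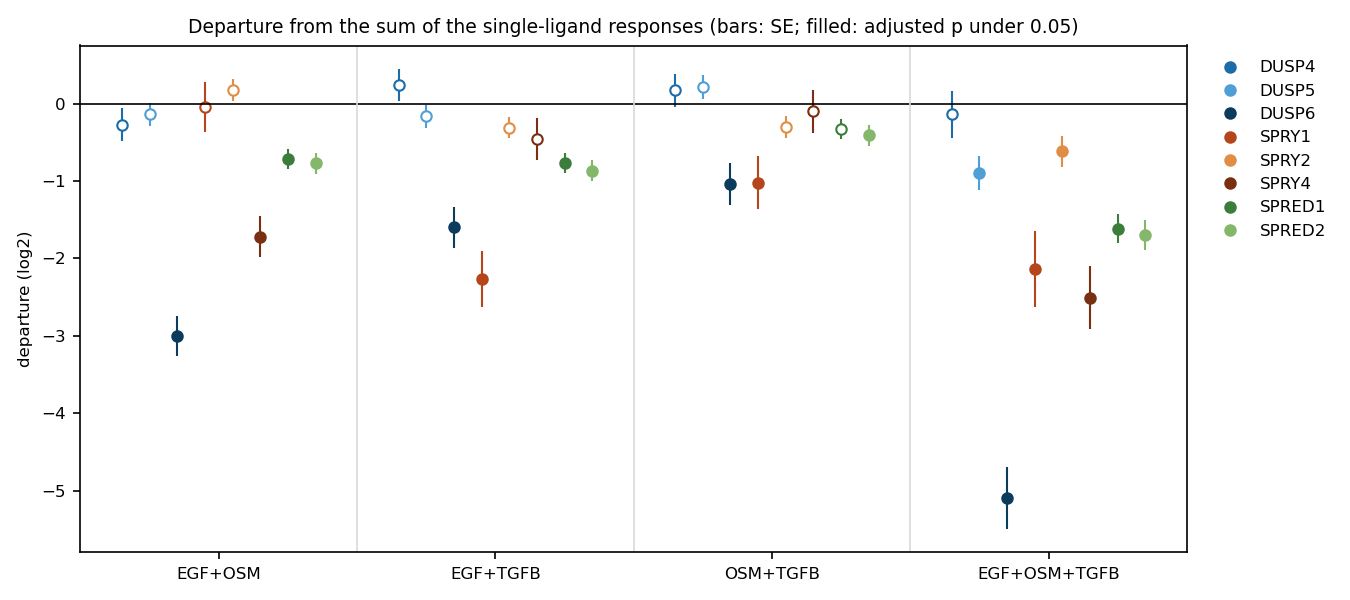
Departure of each combination from the sum of the single-ligand log2 fold changes (vertical axis, 0 is additive). Bars are SE, and filled points are called at an adjusted p under 0.05. DUSP6 is called in all 4 combinations and reaches -5.10 with all 3 ligands, whereas DUSP4 lies within 0.27 of 0 with all libraries in and is called in none.

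The scale on which additivity is set changes the picture for several of these genes. The same combinations were compared with the sum of the changes in CPM over PBS, as a description with no test and chosen after the data were seen. DUSP6 with EGF+OSM stood at 148 CPM, against a sum of 157 CPM (SE of the difference 11.5), so the large negative log2 departure went with a level near the sum. SPRY4 with EGF+OSM likewise stood at 86.6 CPM against 87.0 CPM (SE 5.55), and SPRED1 at 45.9 against 48.7 CPM (SE 2.91). Other groups were below the sum on this scale as well. SPRED2 held 42.8 CPM with EGF+OSM against 52.6 (SE 1.66) and 42.0 CPM with EGF+TGFB against 53.7 (SE 1.77), and SPRED1 with EGF+TGFB held 36.7 CPM against 44.8 (SE 1.79). SPRY1 with EGF+TGFB held 0.552 CPM against 2.57 (SE 0.256), and DUSP6 with EGF+TGFB 61.1 against 101 CPM (SE 4.02). With all 3 ligands DUSP6 held 66.6 against 162 CPM (SE 10.9), and DUSP5, SPRY1, SPRY2, SPRED1 and SPRED2 were below the sum as well. SPRY4 with all 3 ligands was closer to the sum (83.6 against 90.2 CPM, SE 4.59). So was DUSP6 with OSM+TGFB (62.5 against 71.5 CPM, SE 9.53). DUSP4 was above the sum: with EGF+TGFB it held 289 CPM against 171 (SE 11.9), and with all 3 ligands 301 against 183 CPM (SE 12.4), while both groups were near additive on the log2 scale. Other levels above the sum included SPRY4 with EGF+TGFB (88.4 against 75.9 CPM, SE 3.21). DUSP5 (29.4 against 24.9 CPM, SE 1.69) and SPRY1 (5.44 against 4.52 CPM, SE 0.344) were above it with EGF+OSM.

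The order of the 9 group means also set the genes apart. The highest mean was 30.0-fold the lowest for DUSP6, 23.8-fold for SPRY4, 13.0-fold for DUSP4, 9.87-fold for SPRY1, 6.14-fold for DUSP5, 4.76-fold for SPRED1, 3.70-fold for SPRY2 and 3.28-fold for SPRED2. For DUSP4 the order ran from T0 through PBS, OSM, TGFB, OSM+TGFB, EGF, EGF+OSM and EGF+TGFB to EGF+OSM+TGFB, and PBS and OSM, OSM and TGFB, and the top pair overlapped. For DUSP5 it ran from T0 through PBS, TGFB, OSM, OSM+TGFB, EGF+OSM+TGFB, EGF+TGFB and EGF to EGF+OSM, and PBS and TGFB overlapped. DUSP6 formed 3 levels: T0 and PBS overlapped at the bottom with TGFB just above, then EGF+TGFB, OSM+TGFB, OSM and EGF+OSM+TGFB overlapped from 61.1 to 66.6 CPM, and EGF and EGF+OSM stood above without overlap.

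SPRY4 climbed from T0 and PBS, which overlapped, through TGFB, OSM and OSM+TGFB, the last pair overlapping, to EGF. Its highest groups, EGF+OSM+TGFB, EGF+OSM and EGF+TGFB, overlapped between 83.6 and 88.4 CPM. SPRED1 ran from T0 through PBS, TGFB, OSM, OSM+TGFB, EGF, EGF+TGFB and EGF+OSM+TGFB to EGF+OSM, and of these neighbours EGF and EGF+TGFB overlapped. SPRED2 had PBS and T0, which overlapped, at the bottom, then OSM and TGFB, which also overlapped, then OSM+TGFB, and then all groups with EGF between 39.4 and 43.7 CPM, whose 3 highest, EGF+TGFB, EGF+OSM and EGF, overlapped. SPRY1 was lowest with EGF+TGFB, followed by a run of overlapping groups (EGF+OSM+TGFB, T0, PBS, TGFB, OSM+TGFB and EGF), and then by OSM and EGF+OSM, which stood apart. SPRY2 rose in order from OSM+TGFB through OSM, EGF+OSM+TGFB and T0, which overlapped in turn, to TGFB and PBS, which overlapped, then EGF+TGFB and EGF+OSM, which overlapped, and EGF.

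Across the 9 group means, DUSP4, DUSP5, DUSP6, SPRY4, SPRED1 and SPRED2 correlated with one another at Pearson r from 0.77 to 0.97 on the log2 scale. SPRY1 and SPRY2 correlated with the others and with each other at r from -0.19 to 0.49. The points are group means that share libraries and scaling, so these values are descriptions.

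The genes with the pattern most like each member over the same 9 means, among 12085 candidates, were MPRIP, EIF1AD and KIF5B for DUSP4 (highest r 0.99), CHUK, PHLDA1 and PPP2CA for DUSP5, and PUF60, DDX23 and SMARCA4 for DUSP6. For SPRY4 they were PSME3, SOGA1 and FAM98A, for SPRED1 PPP2R5E, UHRF2 and SPECC1L, and for SPRED2 CREB5 and GTF2E2. These 6 members each had from 485 to 768 candidates above r = 0.9, so the few named are the top of long lists. SPRY1 (HNRNPC, DCP2 and PABPN1, highest r 0.97) and SPRY2 (MCUR1, ABHD11 and LY6K, highest r 0.97) had 29 and 21. The likeness is of shape, not size: HNRNPC ranged from 434 to 724 CPM over the 9 means, and PHLDA1 from 13.0 to 174 CPM.

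Other genes of the pathway were described from lists compiled from general knowledge. Of 22 genes of the core cascade from receptor to ERK, EGF raised 11 and lowered 10, and the median log2 value was 0.01, where 33.8% of all rows were called higher and 37.0% lower. NRAS, a RAS protein (58.9 to 101 CPM, 0.78 ± 0.06), and PTPN11, the phosphatase SHP2 (174 to 286 CPM, 0.72 ± 0.05), rose the most, and ERBB3, a receptor of the EGF receptor family (139 to 30.3 CPM, -2.20 ± 0.15), and MAPK3, which encodes ERK1 (43.6 to 20.9 CPM, -1.06 ± 0.09), fell the most. With TGFB added to EGF, 13 of the 22 rose and 0 fell (median 0.17), where 25.8% of all rows were called higher and 26.4% lower. Of 7 other DUSP phosphatases of MAPKs, EGF raised 2 and lowered 4. DUSP7, a cytoplasmic ERK phosphatase like DUSP6, rose (60.0 to 185 CPM, 1.62 ± 0.07) together with DUSP2 (1.35 to 5.24 CPM, 1.95 ± 0.28), and DUSP9 (1.97 to 0.327 CPM, -2.57 ± 0.35) and DUSP10 (61.6 to 24.6 CPM, -1.32 ± 0.17) fell.

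Of 10 other inhibitors of receptor tyrosine kinase, RAS or RAF signalling, EGF raised 4 and lowered 4, near the shares of all rows (33.8% higher, 37.0% lower). SPRED3, the remaining SPRED (0.927 to 1.88 CPM, 1.02 ± 0.24), and RASA1, a RAS GTPase-activating protein (63.1 to 92.9 CPM, 0.56 ± 0.07), rose, whereas CBLB, a ubiquitin ligase of receptors (49.8 to 11.7 CPM, -2.08 ± 0.12), and ERRFI1, an inhibitor of the EGF receptor (250.2 to 101 CPM, -1.31 ± 0.14), fell. Of 18 transcripts known to respond to ERK, EGF raised 15 and lowered 3 (median 1.80), OSM raised 13 and lowered 3 (1.06), and TGFB raised 7 and lowered 3 (0.30). Of all rows, EGF raised 33.8% and lowered 37.0%, OSM raised 32.4% and lowered 28.5%, and TGFB raised 18.9% and lowered 14.7%. The EGF family ligand AREG (10.8 to 280.2 CPM, 4.70 ± 0.26) and the ETS factor ETV5 (2.69 to 45.8 CPM, 4.08 ± 0.19) rose the most, and EPHA4 (7.70 to 2.80 CPM, -1.46 ± 0.14) and EGR3 (10.5 to 3.82 CPM, -1.45 ± 0.21) fell the most. On top of EGF, TGFB raised 5 of the 18 and lowered 9, beside the 25.8% and 26.4% of all rows.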

How the data were processed

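Polyadenylated RNA from MCF10A cells was measured in 27 libraries made with a stranded kit, per the labels' protocols. The authors deposited expected counts (estimated counts per gene), given as whole numbers. The submitters' processing notes name Trim Galore 0.4.3, cutadapt 1.10, FastQC 0.11.5, kallisto 0.46.2, R 3.5.0, GRCh38.p5 and hg38, with no role or order. The annotation, the summing to genes, any rounding and the use of strand are not given in the sources used here. The values were already whole, so rounding them changed nothing. The table has 40487 rows, of which 13156 are at 0 throughout; the 7165 that lack a symbol kept an identifier and stayed in the fit. No value column was left unmapped.

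Groups come from the labels. A quasi-likelihood model with a mean per group was fitted with edgeR 4.0.16 in R 4.3.3 over all libraries (TMM scaling, factors from 0.867 to 1.12; filterByExpr by group, which left 16611 rows; robust dispersions; 18 residual degrees of freedom). P-values were adjusted by the Benjamini-Hochberg method over all rows, with 0.05 as the threshold of a call. Fold changes use a prior count of 0.125, and the SE is the log2 fold change over the square root of F. The biological coefficient of variation was 10.1%, so replicate spread more than counting sets the precision of most values. The labels name no molecular identifiers and no sequencing batch. The code was tested on simulated counts.

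The 8 genes were tested in every comparison, though not all of them are named for each. Their likeness to other genes is Pearson's r between group means of log2 CPM (prior count 2), over protein-coding rows with a mean CPM of at least 1, and 3 are named per gene, except for 1 that is not reported here. From each pathway list, the 2 largest called changes in each direction with EGF are named. The members and the lists were chosen with earlier results of these data known. Alternatives were upper-quartile and RLE scaling, no filter, DESeq2 1.42.0, a 2-fold limit, a replicate block, only the groups compared, rows of a symbol summed, Spearman's rho for likeness, and each library left out in turn. Additivity of CPM was added after the data were seen. Gene positions are from GENCODE v44 (GRCh38), promoters from RefSeq (GRCh38.p14), and protein sequences were not used here.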

Additional observations from a re-analysis of the deposited data

Results flagged for a closer look

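Of 24 tests of pairs against the sum of single ligands, 11 over 5 genes were called (edgeR's quasi-likelihood test, adjusted p under 0.05). In these 11 the log2 effect of 1 ligand differed with the other present. With EGF+OSM the log2 departures were -3.00 for DUSP6, -1.72 for SPRY4, -0.71 for SPRED1 and -0.77 for SPRED2. With EGF+TGFB they were -1.60 for DUSP6, -2.27 for SPRY1, -0.77 for SPRED1 and -0.86 for SPRED2. With OSM+TGFB they were -1.04 for DUSP6, -1.02 for SPRY1 and -0.41 for SPRED2. SPRY1 and SPRED2 with OSM+TGFB lost their call without any 1 of 7 and of 6 libraries. Of all rows, 36.5% were called with EGF+OSM, 27.7% with EGF+TGFB and 21.5% with OSM+TGFB. All 11 are below 0 on the log2 scale. The scale matters here: in CPM, described above with no test, some of these levels were near the sum of the CPM changes. DUSP6, SPRY4 and SPRED1 with EGF+OSM and DUSP6 with OSM+TGFB differed from that sum by less than the SE. The others were below it by more than the SE. Of all rows called, 40.0% were above 0 with EGF+OSM, 44.5% with EGF+TGFB and 41.3% with OSM+TGFB. The 3 tests share the PBS and single-ligand libraries. With groups of 3 libraries no single library was tested as an outlier.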

How the results depend on the processing

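Results here are the 144 log2 differences of the 8 genes in 18 comparisons and the number of genes called in each. No called value changed sign under any setting. RLE scaling, DESeq2 and the replicate block changed 0 of the 144 calls, and with the replicate block EGF still called 8 of 8 genes. Same-numbered libraries did not all correlate over r = 0.1, and the main fit took no account of the replicate number. Deviations of same-numbered libraries correlated at r from -0.0529 to 0.158 (median 0.0408; 10 of 108 pairs over 0.1), those of different numbers at a median of -0.024 (1 of 216 over 0.1), and 25 of 27 libraries were closest on average to their own number, a hint from the data and not the design. Upper-quartile scaling changed 2 calls and shifted the median of all rows by at most -0.10 on the log2 scale. Without a filter 4 calls were lost, with rows of a symbol summed 1 was gained, and with only the groups compared 4 were lost and 7 gained, among the latter SPRY4 with OSM added to EGF (0.22, adjusted p = 0.0212) and in the departure of EGF+TGFB (-0.51, adjusted p = 0.00227). A 2-fold limit lost 61 calls and gained 0. Given with the share of all rows called under the same limit, it left 6 genes called with EGF (17.4%), 2 with OSM (12.7%), 0 with TGFB (1.90%), 7 with EGF+OSM (25.2%), 7 with EGF+TGFB (20.9%), 4 with OSM+TGFB (15.9%), 6 with all 3 ligands (23.5%) and 0 between PBS and T0 (1.47%). It left 3 between EGF and OSM (6.21%), 0 with OSM added to EGF (3.42%), 3 with EGF added to OSM (5.95%), 1 with TGFB added to EGF (2.84%), 0 with TGFB added to OSM (3.03%) and 1 with TGFB added to EGF+OSM (5.77%). For departures it left 2 with EGF+OSM (4.33%), 1 with EGF+TGFB (0.331%), 0 with OSM+TGFB (0.199%) and 5 with all 3 ligands (9.63%). Leaving out each library in turn lost 55 and gained 10 of 3888 calls, in 15 results. The genes called for the OSM+TGFB departure then ranged from 1 to 4, with 1 without TGFB replicate 1, OSM+TGFB replicate 1, PBS replicate 2, PBS replicate 3 or OSM replicate 3. The cause of these changes was not tested; fewer libraries also leave fewer degrees of freedom. The genes most like a member depend on the measure: with Spearman's rho, 2 of 3 named were kept for SPRY2, 1 for DUSP6, 1 for SPRY1 and 0 for the other five. SPRY1, with as few as 19 counts in a library, is the gene whose values depth limits most.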
